A study of Mus musculus with 48 samples.

Results

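The C/D box snoRNA genes are the genes of small nucleolar RNAs that carry a C box and a D box. Members were taken by name, as every gene of the deposited count table whose symbol starts with Snord, without the Snord115 and Snord116 repeats. This gave 81 genes of 55376. The counts came from nascent RNA of TCF2.2, an embryonic stem cell line of C57BL/6 mice derived and grown in serum-free 2i medium. Cells were given 500 µM 4-thiouridine for 5 min, ERCC spike-in RNA was added in proportion to cell number, and labelled RNA was biotinylated and pulled down. The 4 groups have 2 libraries each. One pair of groups had 10 µM BRM014, an inhibitor of the ATPases BRG1 and BRM of the SWI/SNF chromatin remodeller, or DMSO for 3 hours. The other pair had a lentivirus with an shRNA against Chd4, the ATPase of the NuRD chromatin remodeller, or a lentivirus with a scrambled shRNA, then 24 hours in 1.5 µg/mL puromycin. All libraries share 1 cell line, and the labels do not say whether the libraries of a group came from separate cultures, so p-values measure only the spread between these libraries. In bulk RNA of this kind, fewer cells of a type and less RNA per cell of that type cannot be told apart. The question was which genes change in synthesis when either remodeller is inactivated.

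C/D snoRNAs form ribonucleoprotein particles with fibrillarin, Nop56, Nop58 and Snu13. Most of them pair with ribosomal or spliceosomal RNA and place a 2'-O-methyl group on the paired base, and a few act in cleavage and folding of the ribosomal RNA precursor. In vertebrates most lie in introns of genes for ribosomal proteins, translation factors, nucleolar proteins or noncoding RNAs, and are cut out of the debranched intron after splicing. A few have their own promoters.

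Many of these genes had few reads. They had 64 to 238 bases of exon with a median of 79, while RNA was broken to a mean of 300 nt before library preparation. The libraries held 6982354 to 17128981 counts in genes, of which the 81 members took 0.0269% to 0.0634%. Of the 81, 69 had at least 1 count in every library, 26 at least 10 counts in every library, and 8 at least 50. The mean count over the 8 libraries had a median of 14.5, and 32 members had a mean under 10. The 10 members with a mean of at least 100 held 71.1% of all member counts. Library by library, 29 members reached 10 counts in the libraries labelled Chd4 shRNA at the least, and 60 in the DMSO libraries at the most.

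A gene was tested if its mean count was at least 10-fold above background per kb of exon, measured on 1434 olfactory and vomeronasal receptor genes. This kept 8272 genes and 74 of the 81 members. The 7 left out were Snord23, Snord61, Snord64, Snord67, Snord90, Snord107 and Snord123, none of which had more than 8 counts in any library. Levels below are in CPM, counts scaled to the library total in expressed genes after TMM scaling, so they are relative to the other expressed genes. Tests were edgeR quasi-likelihood F tests over all 8272 genes, and called means a Benjamini-Hochberg adjusted p under 0.05. An exact permutation test of 1 value, 2 libraries on each side, could not go below 0.333.

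Coordinates placed 75 of the 81 inside a longer gene on the same strand, in 52 host genes. Another 4 lay inside a RefSeq gene that the count table does not list in that place, namely Snord104 in Gm36220 and Snord1a, Snord1b and Snord1c in Snhg16. The table gives no exon positions, so intron and exon of a host could not be told apart. Only Snord118 and Snord13 lay in no other gene. Snord118 encodes U8, which acts in processing of the large subunit ribosomal RNAs, and is at chr11:69073427-69073561, plus strand (mm10), starting 133 bases past the end of Tmem107 on the same strand. Snord13 encodes U13, which guides acetylation of the small subunit RNA, and is at chr8:31149864-31149967, minus strand. Both have promoters of their own in mammals. Of the members with a host, 18 lay in genes for ribosomal proteins of the Rpl and Rps series and 31 in other protein-coding genes. Another 21 lay in noncoding genes and 9 in hosts without a RefSeq match. In the count table the longest containing gene was taken as host, so an unmatched host can still overlap a RefSeq gene. Snord107, for example, lies in the unmatched Gm38393 and also within the RefSeq span of Snhg14. Of the 75 inside a gene of the count table, 40 shared their host with another member, in 17 hosts. Snord1a, Snord1b and Snord1c also share Snhg16, so members are not independent of each other.

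A snoRNA that is cut out of its host's transcript shares the start site of the host. Whether the members below do so was not tested. The windows below are shown because Snord49b, Snord60 and Snord104 are called members that lie a short way from the start of a noncoding host. They span 250 bases before to 50 after the RefSeq start (GRCm38.p6, the assembly of mm10), 5′ to 3′, with the transcribed 50 bases in capitals. The window of 2410006H16Rik is chr11:62602627-62602926 on the plus strand, and Snord49b begins 202 bases after the start site. The window of Rab26os is chr17:24528001-24528300 on the plus strand, and Snord60 begins 225 bases after the start site. The window of Gm36220 is chr11:106500665-106500964 on the plus strand, and Snord104 begins 78 bases after the start site.
2410006H16Rik: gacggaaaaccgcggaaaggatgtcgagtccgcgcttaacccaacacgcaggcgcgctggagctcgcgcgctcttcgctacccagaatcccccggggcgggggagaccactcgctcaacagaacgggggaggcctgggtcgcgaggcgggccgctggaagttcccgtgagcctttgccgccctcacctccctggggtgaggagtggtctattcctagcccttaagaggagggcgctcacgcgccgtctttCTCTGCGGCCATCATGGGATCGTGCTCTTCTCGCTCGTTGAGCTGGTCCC
Rab26os: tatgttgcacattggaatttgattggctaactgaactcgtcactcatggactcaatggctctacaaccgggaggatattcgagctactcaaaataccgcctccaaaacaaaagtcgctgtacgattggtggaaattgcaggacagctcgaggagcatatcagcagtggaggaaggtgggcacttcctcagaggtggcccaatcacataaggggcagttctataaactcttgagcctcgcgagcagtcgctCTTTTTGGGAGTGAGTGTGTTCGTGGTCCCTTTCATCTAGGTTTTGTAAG
Gm36220: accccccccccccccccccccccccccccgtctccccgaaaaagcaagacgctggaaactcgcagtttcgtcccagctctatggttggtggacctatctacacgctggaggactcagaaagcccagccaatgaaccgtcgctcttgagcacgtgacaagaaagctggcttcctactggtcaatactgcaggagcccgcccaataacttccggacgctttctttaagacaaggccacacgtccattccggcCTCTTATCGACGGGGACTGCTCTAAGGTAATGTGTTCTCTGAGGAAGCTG

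All 3 windows held an unbroken run of at least 6 C or T bases on the transcribed strand that touched the 15 bases around the start. Such pyrimidine runs at the start mark the genes of ribosomal proteins and many snoRNA hosts. The run was found in 45.0% of 40 windows of 37 host genes and in 24.4% of all 32851 RefSeq windows. TATAAA, searched on both strands, was in 17.5% of host windows and 13.6% of all windows, and stood 31 bases before the start of Rab26os. CACGTG was in 20.0% of host windows and 7.15% of all windows, and was in the window of Gm36220 only among the 3. These matches describe letters, not factor binding.

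Sequences of the snoRNAs themselves were not in the files, with 1 partial exception. The hairpin of Mir5121 (chr7:45126918-45126991, minus strand, GRCm38.p6) shares 30 bases with the 5′ end of Snord33 at chr7:45126864-45126947, minus strand. It is shown because it holds the start of a C/D snoRNA, with the shared bases in capitals.
Mir5121: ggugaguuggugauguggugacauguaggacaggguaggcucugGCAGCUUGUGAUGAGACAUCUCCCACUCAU

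The shared stretch holds UGAUGA, the core of the C box that gives the family its name, starting at its base 9. Reads from these bases overlap both genes, and how such reads were counted is not given. Mir5121 had 334 to 1383 counts in the 8 libraries. Snord33 had 17 and 26 counts with DMSO, 21 and 25 with BRM014, 13 and 13 with scrambled shRNA and 7 and 8 in the libraries labelled Chd4 shRNA, and was called in neither comparison.

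**Figure D1:**
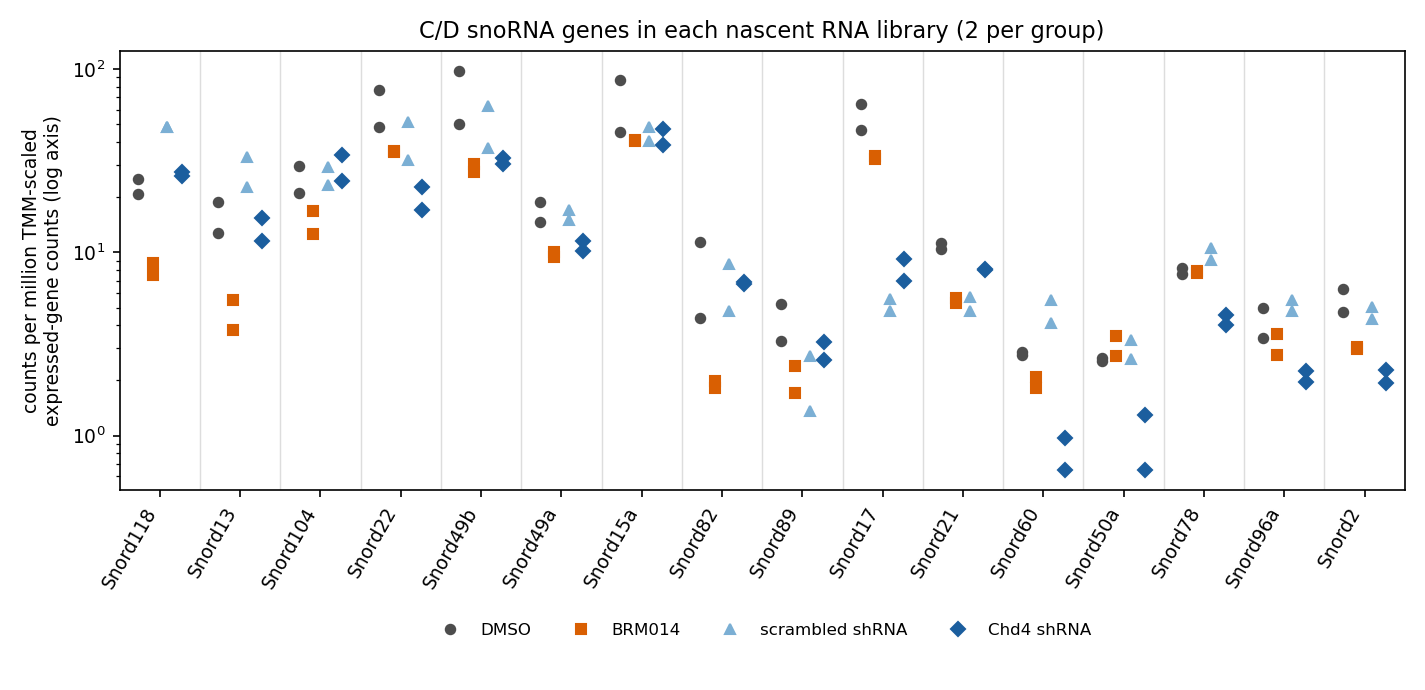
Level of 16 C/D snoRNA genes in each of the 8 nascent RNA libraries, in CPM of expressed genes after TMM scaling on a log axis, 1 symbol a library and 1 colour a group. Snord118 and Snord13 were lower in both BRM014 libraries than in all 6 others, and Snord17 was lower in all 4 lentivirus libraries than in the 4 others.

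With BRM014, U8 and U13 were among the snoRNAs with the largest decrease. The level of Snord118 was 20.7 and 25.3 CPM in the DMSO libraries and 8.79 and 7.55 CPM with BRM014. The groups did not overlap, and the fit gave a 2.84-fold lower level, a log2 fold change of -1.50 ± 0.15 (SE) with an edgeR adjusted p of 2.18e-07. Snord13 had 18.8 and 12.7 CPM with DMSO and 5.52 and 3.77 CPM with BRM014. It was 3.45-fold lower, at -1.79 ± 0.22 on the log2 scale with an edgeR adjusted p of 3.95e-06. Both calls held when any single library was left out.

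Of the 74 tested members, 16 fell with BRM014 and 1 rose, against 3.12% of all expressed genes and 0.685% of other short genes called higher. The 16 are 21.6% of those tested, against 4.63% of all 8272 expressed genes called lower. They are also close to the 21.5% called lower among the 730 other expressed genes of at most 200 bases, so the share of lower calls was near that of short genes in general. The median log2 fold change was -0.38 over the members, -0.30 over the other short genes and 0.01 over all expressed genes. All 16 had a mean count of at least 10, and the 25 tested members below that mean, at a median of -0.38, gave 0 calls by edgeR and 0 by DESeq2 (5 at an unadjusted edgeR p under 0.05). Of the 10 members with a mean of at least 100, 9 fell, and Snord43 in Rpl3 was not called (-0.24 ± 0.15). The 21.5% of other short genes is over all counts and is no like comparison for these 10. Under a filter of at least 50 counts in at least 2 libraries, 51.9% of 27 members and 44.7% of other short genes were lower. Other classes of short RNA were taken by name. H/ACA and Cajal body RNAs had 17 of 39 lower, spliceosomal RNAs 8 of 10, and microRNA genes 18 of 146. In 5-min labelled RNA the level of a mature snoRNA and of its precursor cannot be told apart from counts over its own bases.

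**Figure D2:**
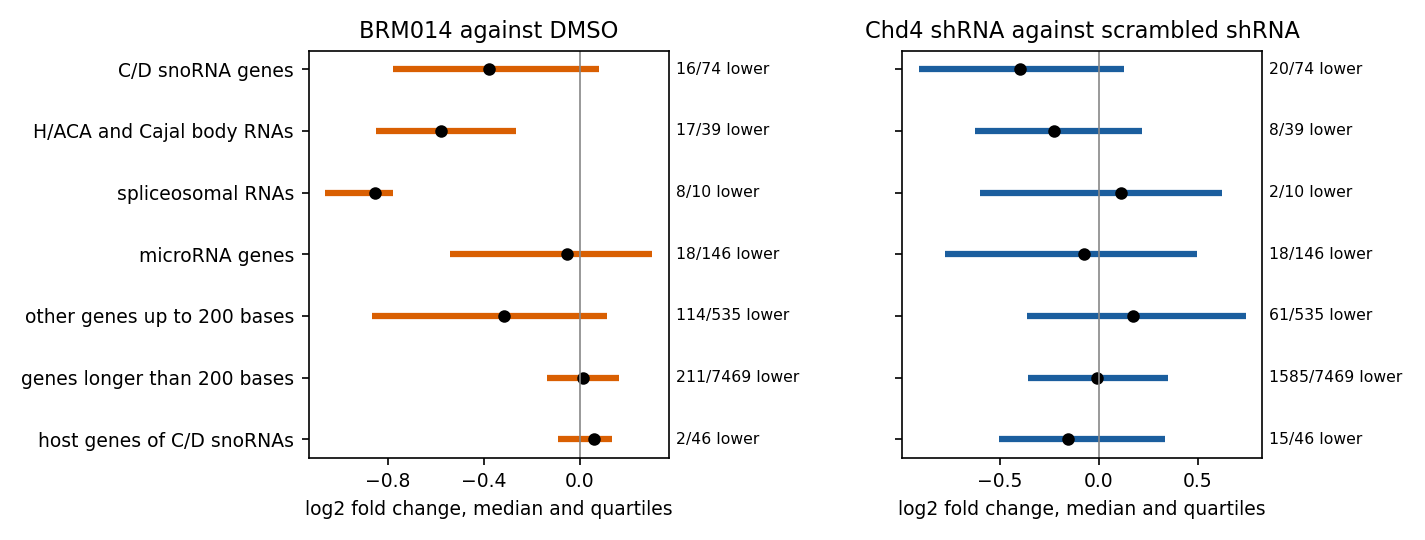
Median (point) and quartiles (bar) of the log2 fold change over each class of expressed gene, BRM014 against DMSO on the left and the libraries labelled Chd4 shRNA against scrambled shRNA on the right, with the number called lower of the number tested at the right edge of each panel. With BRM014 the C/D snoRNA genes lie below 0 with the other short classes while their hosts have a median of 0.06.

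Among the ribosomal RNA processing snoRNAs inside hosts, U22 fell and U14 did not pass the test. Snord22, which encodes U22 and acts in small subunit RNA maturation, lies in Snhg1, a noncoding host known for its set of snoRNAs. Its level was 76.4 and 48.5 CPM with DMSO and 35.6 and 35.2 with BRM014, a log2 fold change of -0.82 ± 0.19 with an edgeR adjusted p of 0.00594. This call was lost without DMSO replicate 1, at an edgeR adjusted p of 0.144, and without BRM014 replicate 2, at 0.0685. The U14 genes Snord14c, Snord14d and Snord14e lie together in Hspa8, the constitutive heat shock cognate chaperone, and had log2 fold changes of 0.17 ± 0.26, -0.04 ± 0.25 and 0.02 ± 0.28. Their levels stayed between 1.55 and 2.00 CPM in the 4 libraries of this comparison. Snord14a in Rps13 had 4 to 14 counts there and was not called. These 4 genes encode near-identical RNAs, so reads may have been split between them or dropped. Snord3a and Snord14b are not analysed here.

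Of the other called members with a level above the median of tested members, the largest falls were those of Snord82, Snord49b and Snord89. Snord82 lies in Ncl, the gene of nucleolin, and had 11.4 and 4.41 CPM with DMSO against 2.00 and 1.83 with BRM014. The DMSO libraries lay far from each other, and both were above both treated ones. The log2 fold change was -2.03 ± 0.33 with an edgeR adjusted p of 0.000201, and -1.23 without DMSO replicate 1, with the call kept. Snord49b had 97.9 and 50.4 CPM with DMSO and 30.1 and 27.5 with BRM014, again with DMSO replicate 1 the highest. Its log2 fold change was -1.36 ± 0.22 with an edgeR adjusted p of 0.000153. Snord89 had 5.22 and 3.28 CPM with DMSO and 2.40 and 1.72 with BRM014, a change of -1.07 ± 0.25 and an edgeR adjusted p of 0.00836, which was 0.246 without BRM014 replicate 2 and 0.125 without DMSO replicate 1.

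Of the further members that fell, Snord1b (in Snhg16) was at -1.11, Snord21 (in Rpl5) at -0.99, Snord57 (in Nop56) at -0.97 and Snord2 (in Eif4a2) at -0.87. Snord83b (in Rpl3) and Snord49a (in 2410006H16Rik) were both at -0.79, Snord104 was at -0.76, Snord17 (in Snx5) and both U15 genes of Rps3 lay between -0.75 and -0.70. The 1 member that rose was Snord16a in Rpl4, from 16 and 16 counts to 20 and 42, at 1.11 ± 0.30 with an edgeR adjusted p of 0.0204. That call was lost without BRM014 replicate 2, at an edgeR adjusted p of 0.442. The number of members that fell went from 16 to 8 without BRM014 replicate 2 and to 9 without DMSO replicate 1, and 7 of the 16 were called whichever library was left out (Snord13, Snord17, Snord21, Snord49a, Snord49b, Snord82 and Snord118). Of the others named here, Snord2 was lost without BRM014 replicate 2 (edgeR adjusted p 0.103) and Snord104 without BRM014 replicate 1 (0.106) or DMSO replicate 1 (0.0988). Snord1b and Snord15b were lost without BRM014 replicate 2, and Snord15b also without DMSO replicate 1. Snord57 was lost whichever library of this comparison was left out. Snord15a and Snord83b were lost without BRM014 replicate 1, BRM014 replicate 2 or DMSO replicate 1. With libraries scaled by TMM over all ERCC RNAs, edgeR called 0 members, 0 other short genes and 0 of all 8272 genes, and 5 members had an unadjusted p under 0.05.

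Hosts were called about as often as expressed genes in general. Of 46 tested hosts, 2 were higher and 2 lower with BRM014, 4.35% in each direction against 3.12% and 4.63% of all expressed genes, and their median log2 fold change was 0.06. In the 64 pairs of a tested member and a tested host, 11 members fell, 10 with a host that was not called and 1, Snord2, with a host that rose (Eif4a2, 0.48 ± 0.14, edgeR adjusted p 0.0292). Across these pairs the Pearson correlation of member and host was -0.08, given as a description since members share hosts and all share libraries. The difference between the change of a member and that of its host was not tested.

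**Figure D3:**
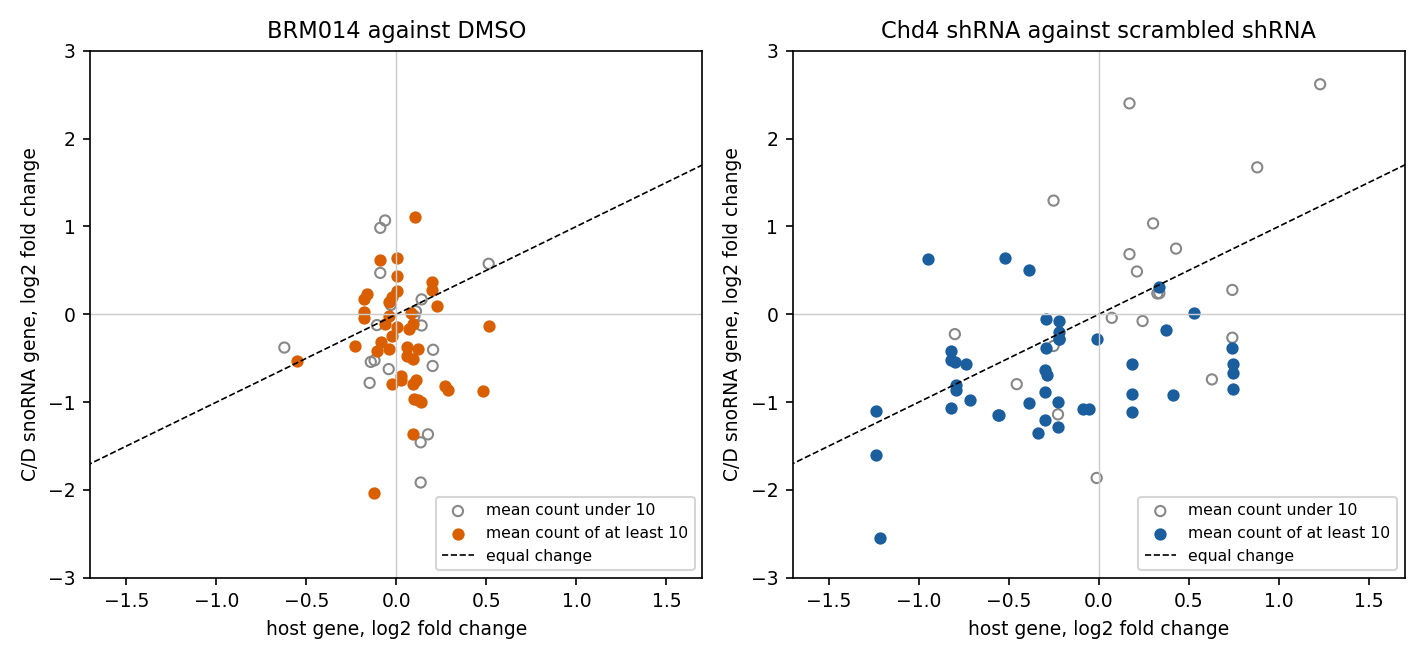
Log2 fold change of each tested C/D snoRNA gene (vertical) against that of its tested host (horizontal) in 64 pairs, BRM014 against DMSO on the left and the libraries labelled Chd4 shRNA against scrambled shRNA on the right, with open circles for members with a mean count under 10 and the dashed line at equal change. Hosts spread less than members with BRM014, while in the right panel hosts spread more widely and the correlation is 0.46.

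The ratio of a snoRNA's count to its host's count in the same library needs no scaling between libraries. Snord49b had 223 and 144 counts per 1000 counts of 2410006H16Rik with DMSO and 76.8 and 61.5 with BRM014. Snord49a in the same host went from 43.1 and 41.9 to 25.7 and 21.0, and Snord65, the third member there, had 11.6 and 12.3 with DMSO and 10.2 and 10.2 with BRM014. Within 1 host, the ratios of both Snord49 genes were thus lower by a wider margin than that of Snord65, whose own level was not called (-0.12 ± 0.18). Snord22 had 181 and 147 counts per 1000 of Snhg1 with DMSO and 82.8 and 73.7 with BRM014. Over the 45 nested members with a mean count of at least 10, both BRM014 libraries lay below both DMSO libraries in 21 (46.7%) and above in 6. They lay below for 48.2% of 226 other nested short genes and above for 13.3%, so this too was near the share of short genes in general. Per kb of exon, 12 of 68 nested members had more counts than their host, with a median ratio of 0.366, both from mean counts over all 8 libraries. Library by library, Snord17 stood at 11.97 and 7.53 times Snx5 with DMSO, 5.48 and 5.12 with BRM014, 0.735 and 0.583 with scrambled shRNA and 1.75 and 1.21 in the libraries labelled Chd4 shRNA, so it was above its host in all groups but the scrambled one. Snord82 was above Ncl and Snord22 above Snhg1 in all 8 libraries, from 1.31 to 8.34 and from 1.39 to 4.26 times.

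**Figure D4:**
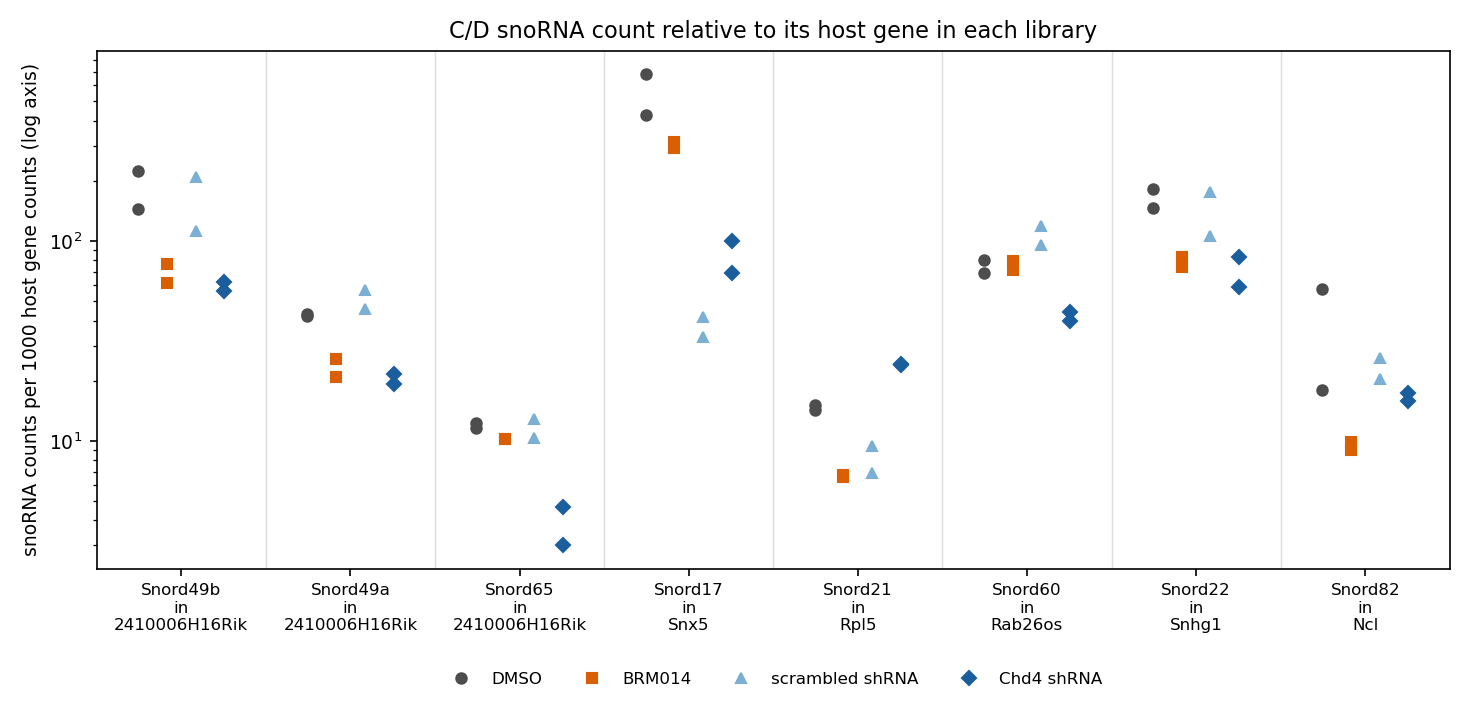
Counts of 8 C/D snoRNA genes per 1000 counts of their host gene in each library, on a log axis, 1 symbol a library. Both Snord49 genes are lower in both treated groups than in both control groups, and the Snord17 ratio is at most 99.5 in the 4 lentivirus libraries and at least 292 in the others.

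In the libraries labelled Chd4 shRNA, Chd4 itself was not lower. It had 730 and 760 counts there and 806 and 618 with scrambled shRNA, a log2 fold change of 0.57 ± 0.16 with an edgeR adjusted p of 0.00532, so the directions below compare libraries by their labels. These 2 libraries were also the shallowest and had 6.78 and 7.21 background counts per kb against 1.32 to 2.66 in the other 6. The 8 embryonic stem cell markers were all expressed, at a summed level of 1710 to 1790 CPM there and 2773 to 3342 in the other 6 libraries. No fibroblast, primitive endoderm or trophoblast marker was in the tested set and none was at 0 in all libraries. The 5 fibroblast markers summed to 64.1 to 72.7 CPM in the libraries labelled Chd4 shRNA and 6.32 to 11.3 in the others, the 4 of primitive endoderm to 18.0 to 21.0 against 3.54 to 5.20, and the 4 of trophoblast to 26.4 to 29.8 against 5.81 to 9.39. The sums were not corrected for background, which was higher in the libraries labelled Chd4 shRNA. How far background makes up the fibroblast, primitive endoderm and trophoblast sums was not tested. The part of these differences in the snoRNA results was not tested either.

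Between these libraries and scrambled shRNA, 20 of the 74 members were lower and 4 higher. The 20 are 27.0%, against 20.5% of all expressed genes and 12.2% of the 730 other short genes, and the 4 are 5.41%, against 19.4% of all expressed genes and 16% of other short genes called higher. The median log2 fold change was -0.40 over the members, -0.01 over all expressed genes and 0.11 over the other short genes. Among the 49 members with a mean count of at least 10 the median was -0.67, with 19 lower and 2 higher. The 25 below that mean had a median of 0.24, with 1 lower and 2 higher. The shares of all expressed and other short genes above are over all counts and are no like comparison for these 49. Under the edgeR default filter within the expressed genes, 35.1% of 57 members and 16.8% of other short genes were lower. Of the 20, 7 were called whichever library was left out (Snord13, Snord22, Snord43, Snord60, Snord78, Snord96a and Snord118), and the number fell to 9 without Chd4 shRNA replicate 4 and to 12 without replicate 1. The counts depended on the scale. The members' median was -0.21 with TMM over all ERCC RNAs (1 lower, 0 higher), -0.01 with TMM over the abundant ERCC RNAs (1 lower, 3 higher) and -0.22 with total gene counts (11 lower, 4 higher). With plain ERCC totals it turned to 0.15, with 1 member lower and 8 higher, while the median of all expressed genes moved to 0.59. On each of these scales the members' median lay below that of all expressed genes.

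The U8 and U13 genes were lower in this comparison too. Snord118 had 48.6 and 48.4 CPM with scrambled shRNA and 27.5 and 26.1 in the libraries labelled Chd4 shRNA, a log2 fold change of -0.85 ± 0.14 with an edgeR adjusted p of 4.93e-05. Snord13 had 33.3 and 22.7 CPM and 15.5 and 11.6 CPM, a change of -1.05 ± 0.21 with an edgeR adjusted p of 0.000361. U22 was lower as well, with 51.5 and 32.0 CPM for Snord22 in the scrambled libraries and 22.7 and 17.0 in those labelled Chd4 shRNA. The change was -1.07 ± 0.22 with an edgeR adjusted p of 0.000459. Under each of the 3 ERCC scalings the calls of Snord118, Snord13 and Snord22 were lost, and only Snord60 stayed called lower. Their log2 fold changes stayed negative in every setting, the smallest in size being -0.25, -0.48 and -0.50. Of the U14 genes, Snord14c was lower at -1.11 ± 0.42 (edgeR adjusted p 0.0451, from 21 and 13 counts to 5 and 6). Snord14d (-0.56 ± 0.37) and Snord14e (-0.90 ± 0.42) in the same host were not called. The Snord14c call was lost in 4 of 8 fits that left out a library, at most to an edgeR adjusted p of 0.361 without scrambled replicate 1.

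The largest difference was that of Snord60, a methylation guide in the noncoding gene Rab26os. It had 48 and 36 counts with scrambled shRNA and 6 and 4 in the libraries labelled Chd4 shRNA, or 5.47 and 4.11 CPM and 0.966 and 0.652 CPM. The level was 5.85-fold lower, -2.55 ± 0.35 on the log2 scale, with an edgeR adjusted p of 6.2e-06, and the call held under every scaling, filter and left-out library for which it was tested. Its host was lower by less, at -1.21 ± 0.16 with an edgeR adjusted p of 2.91e-06. The ratio to Rab26os was 119 and 95.7 per 1000 with scrambled shRNA and 44.1 and 40.0 in the libraries labelled Chd4 shRNA.

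Snhg5, a noncoding host, holds Snord50a and Snord50b, and all 3 were lower. Snord50a had 3.31 and 2.63 CPM with scrambled shRNA and 1.29 and 0.652 in the libraries labelled Chd4 shRNA, at -1.60 ± 0.39 with an edgeR adjusted p of 0.00198. Snord50b was at -1.10 ± 0.34 and Snhg5 itself at -1.24 ± 0.14, with edgeR adjusted p of 0.0134 and 3.35e-07. Gas5, a noncoding gene whose spliced RNA is short-lived, holds Snord47, Snord78 and Snord80. Snord78 had 9.12 and 10.6 CPM and 4.03 and 4.57 CPM, at -1.20 ± 0.21 with an edgeR adjusted p of 8.59e-05. Snord47 (-0.89 ± 0.27) and Snord80 (-0.63 ± 0.24) were also called lower, while Gas5 was at -0.30 ± 0.16 and not called. Snord87 in Snhg6 was lower too, with an edgeR adjusted p of 0.00662, and its host was not called. Without Chd4 shRNA replicate 4 the calls of Snord50a, Snord50b, Snord87, Snord47 and Snord80 were lost, at edgeR adjusted p of 0.0582, 0.279, 0.112, 0.0786 and 0.145. Snord47 and Snord80 were lost without replicate 1 of that group as well (0.0714 and 0.174). In all, 11 of 20 tested members in noncoding hosts were lower. It was 4 of 18 in ribosomal protein hosts, 3 of 27 in other protein-coding hosts and 0 of 7 in unmatched hosts. Over all expressed genes 20.5% were lower, and over the other short genes 12.2%. The first 3 classes also differed in detection, with a mean count of at least 10 in 16 of 20, 13 of 18 and 13 of 27. Several of the lower members share a host. This grouping by host used the longest containing gene, was made after the values were seen and was not tested.

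In protein-coding hosts, Snord96a lies in Rack1, the gene of a ribosome-bound scaffold protein, and had 5.47 and 4.79 CPM with scrambled shRNA and 2.25 and 1.96 in the libraries labelled Chd4 shRNA. The change was -1.28 ± 0.30 with an edgeR adjusted p of 0.00173, and Rack1 was not called (-0.23 ± 0.16). Snord2 had 5.01 and 4.34 CPM and 1.93 and 2.28 CPM, at -1.15 ± 0.29 with an edgeR adjusted p of 0.00307, and its host Eif4a2, an RNA helicase of translation initiation, was lower as well (-0.56 ± 0.14). The Snord2 call was lost without Chd4 shRNA replicate 1 (edgeR adjusted p 0.0546). The members of the Rpl13a region (Snord32a, Snord33, Snord34 and Snord35a, inside the long gene Gm45713) ranged from -0.28 to -0.08 and were not called in either comparison. The members of Rpl23a (Snord42a, Snord42b and Snord4a) were not called either, while Rpl23a itself was higher at 0.74 ± 0.15. In 2410006H16Rik the host was higher at 0.75 ± 0.15 and its 3 snoRNAs were lower, Snord65 at -0.85 ± 0.31, Snord49b at -0.67 ± 0.24 and Snord49a at -0.57 ± 0.18. The Snord49b ratio to this host was 208 and 112 per 1000 with scrambled shRNA and 56.5 and 62.1 in the libraries labelled Chd4 shRNA, without overlap. Each of these 3 calls depended on single libraries. Without scrambled replicate 1 the edgeR adjusted p was 0.134 for Snord65, 0.552 for Snord49b and 0.108 for Snord49a, and without Chd4 shRNA replicate 1 it was 0.303 for Snord65 and 0.181 for Snord49b.

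Over the 64 pairs, 6 lower members had a host that was lower and 9 a host that was not called. Another 3, those of 2410006H16Rik, had a host that was higher. Of the 46 tested hosts, 15 were lower (32.6%) and 9 higher (19.6%), against 20.5% and 19.4% of all expressed genes. Whether lower members had a lower host more often than this was not tested. The correlation of member and host was 0.46 over 64 pairs and 0.25 over the 44 pairs with a member mean of at least 10, as a description. Both libraries labelled Chd4 shRNA lay below both scrambled ones for the ratio to the host in 20 of 45 members (44.4%), and above in 5. The same was found for 39.8% of the 226 other nested short genes, and the opposite order for 22.6%.

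Snord17 and Snord21 were the higher members with a mean count of at least 10. Snord21 lies in Rpl5 and had 5.70 and 4.79 CPM with scrambled shRNA and 8.05 and 8.15 CPM in the libraries labelled Chd4 shRNA. The change was 0.63 ± 0.20 with an edgeR adjusted p of 0.0163, and Rpl5 was lower at -0.95 ± 0.15. With the default edgeR filter, which lets in genes near background, the median of the expressed genes moved to -1.34 and the Snord21 change to -0.71. On the usual scale its call was lost without either library labelled Chd4 shRNA (edgeR adjusted p 0.0664 and 0.0832) or scrambled replicate 3 (0.133). The ratio to Rpl5 needs no scale and was 9.41 and 6.91 per 1000 with scrambled shRNA and 24.2 and 23.9 in the libraries labelled Chd4 shRNA. The same ratio was 14.2 and 15.0 with DMSO and 6.74 and 6.59 with BRM014, so the groups did not overlap in either comparison and lay in opposite order. Snord71 and Snord92 were called higher from few reads. Both calls were lost with DESeq2, with background subtracted over a length extended by the fragment, and in some fits that left out a library. Snord71 had 3 and 4 counts with scrambled shRNA and 10 and 6 in the libraries labelled Chd4 shRNA, and Snord92 had 2 and 0 against 2 and 6. Snord17 is described with the controls below.

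The same 6 members were lower in both comparisons, namely Snord118, Snord13, Snord22, Snord2, Snord49a and Snord49b. They are 6 of the 16 that fell with BRM014 and 6 of the 20 that were lower in the other comparison (37.5% and 30%). Over all expressed genes 100 were lower in both, 26.1% and 5.9% of the genes lower in each, and over the other short genes 48, or 30.6% and 53.9%. The effects of the 2 comparisons were tested against each other in the same fit. For 9 members the BRM014 effect was the lower one (12.2%, against 15.4% of all expressed genes and 23.4% of other short genes) and for 7 it was the higher one (9.46%, against 15.4% and 3.29%). Among members above the median level of those tested, the first group was led by Snord82 (-2.05 ± 0.50, edgeR adjusted p 0.00304), Snord21 (-1.62 ± 0.25, 4.22e-05), Snord89 (-1.57 ± 0.46, 0.0118), Snord17 (-1.39 ± 0.29, 0.0008) and Snord104 (-0.92 ± 0.26, 0.00819). The second was led by Snord60 (2.01 ± 0.45, edgeR adjusted p 0.00144), Snord50a (1.87 ± 0.44, 0.00243), Snord50b (1.46 ± 0.40, 0.0081), Snord78 (1.17 ± 0.26, 0.00129) and Snord87 (1.10 ± 0.32, 0.0121). Snord82 and Snord104 were not called in the second comparison (0.02 ± 0.35 and 0.16 ± 0.19), and Snord104 had 29.6 and 21.0 CPM with DMSO, 12.6 and 16.9 with BRM014, 29.3 and 23.3 with scrambled shRNA and 34.1 and 24.5 in the libraries labelled Chd4 shRNA. U8 fell by more with BRM014 (-0.65 ± 0.21, edgeR adjusted p 0.0187), and for U13 the difference of -0.74 ± 0.31 did not pass (edgeR adjusted p 0.0706). With the default edgeR filter and with no filter, the median difference of the expressed genes was 1.40 and 1.55. Under these settings the U8 difference was 0.75 and 0.90 (edgeR adjusted p 0.00412 and 0.000946) and that of Snord104 0.47 and 0.63. The U8 difference also failed the test with TMM over all or the abundant ERCC RNAs, scaling to short genes, total counts, the 3-fold filter and a minimum of 50 counts. It was lost without BRM014 replicate 2 (edgeR adjusted p 0.128) or Chd4 shRNA replicate 1 (0.0748), that of Snord104 without Chd4 shRNA replicate 1 (0.103), and those of Snord50b, Snord87 and Snord89 without Chd4 shRNA replicate 4 (0.115, 0.113 and 0.0798).

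**Figure D5:**
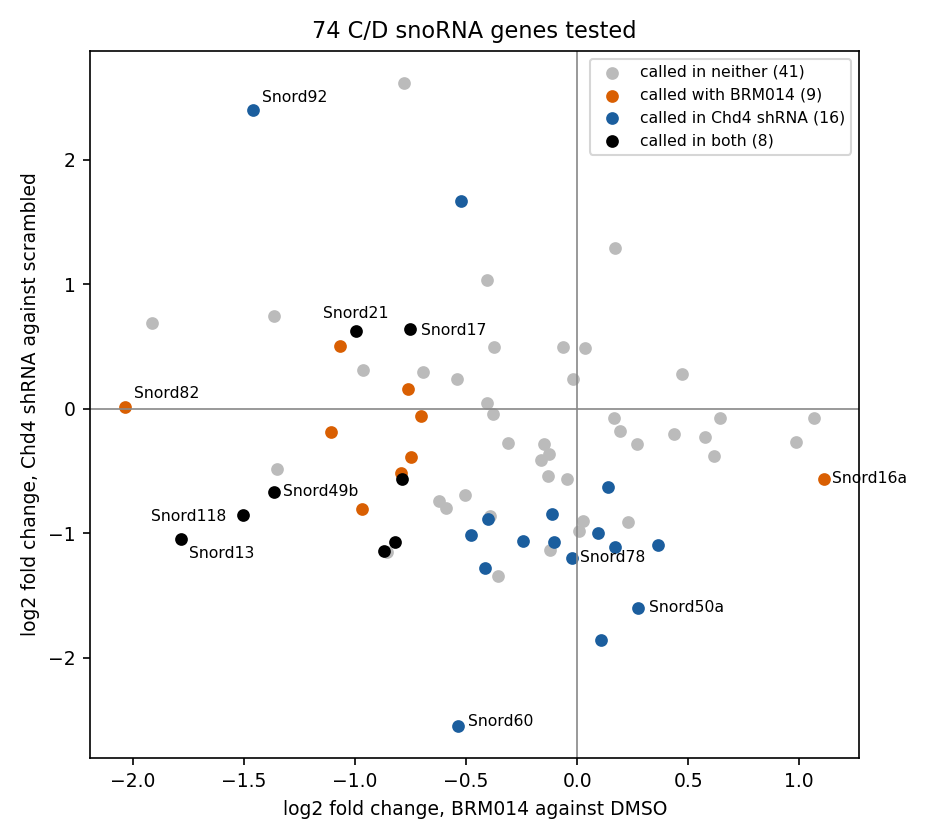
Log2 fold change of the 74 tested C/D snoRNA genes with BRM014 against DMSO (horizontal) and in the libraries labelled Chd4 shRNA against scrambled shRNA (vertical), coloured by the comparison in which edgeR called them. Snord118, Snord13 and Snord49b are low on both axes, Snord82 on the horizontal axis and Snord60 and Snord50a on the vertical one.

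The 2 control groups differed most for Snord17, a methylation guide in Snx5, which encodes a sorting nexin of endosomes. This comparison was added after its counts were seen. Snord17 had 1042 and 818 counts with DMSO, 420 and 565 with BRM014, 49 and 42 with scrambled shRNA and 57 and 43 in the libraries labelled Chd4 shRNA. In CPM these were 64.7 and 46.2, 33.6 and 32.3, 5.58 and 4.79 and 9.18 and 7.01. The scrambled libraries were 10.7-fold below the DMSO libraries, at -3.41 ± 0.19 on the log2 scale with an edgeR adjusted p of 8.75e-12, and the host Snx5 went the other way (0.45 ± 0.13, edgeR adjusted p 0.0253). The ratio to Snx5 was 682 and 429 per 1000 with DMSO and 41.9 and 33.2 with scrambled shRNA, and 312 and 292 and 99.5 and 69.1 in the treated groups. Its fall with BRM014 was -0.75 ± 0.14 with an edgeR adjusted p of 0.00102, and its rise in the libraries labelled Chd4 shRNA was 0.64 ± 0.25 with an edgeR adjusted p of 0.0446, which was 0.314 without replicate 1 of those libraries and 0.205 without scrambled replicate 3. With the default edgeR filter, where the median of the expressed genes was -1.34, that change was -0.69.

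Between the controls, 3 members were higher and 6 lower with scrambled shRNA, 4.05% and 8.11% of those tested, against 7.11% and 5.96% of all expressed genes and 7.53% and 6.99% of other short genes. Both U8 and U13 were higher with scrambled shRNA, Snord118 at 1.07 ± 0.13 (edgeR adjusted p 6.17e-06) and Snord13 at 0.84 ± 0.18 (edgeR adjusted p 0.00316), and Snord60 was at 0.77 ± 0.21 (edgeR adjusted p 0.0169). Snord21 was lower at -1.05 ± 0.17 with an edgeR adjusted p of 0.000149, as were Snord89 (-1.03 ± 0.29) and Snord22 (-0.58 ± 0.19). Lentivirus, puromycin, DMSO and time differ together between these groups and cannot be told apart. Each treated group was compared only with its own controls.

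No gene for a protein of the C/D particle or its assembly was called with BRM014. Of 24 genes listed, 22 were tested, 0 were called by edgeR and 0 by DESeq2, 3 had an unadjusted edgeR p under 0.05, and the median log2 fold change was 0.03. With 3.12% of all expressed genes called higher and 4.63% lower, a count of 0 among 22 is near the general share. The core proteins were at -0.11 ± 0.13 (Fbl, the methyltransferase), 0.12 ± 0.14 (Nop56), 0.10 ± 0.14 (Nop58) and -0.01 ± 0.14 (Snu13). In the libraries labelled Chd4 shRNA 7 of the 22 were lower and 3 higher, where 20.5% and 19.4% of all expressed genes were. Nop56 was lower at -0.79 ± 0.15 with an edgeR adjusted p of 0.000162, as were Ruvbl2, an ATPase of the assembly machinery (-0.67 ± 0.14), and Coil, the Cajal body scaffold (-0.52 ± 0.14). Rpap3, a subunit of the R2TP assembly chaperone, was higher at 0.75 ± 0.19 with an edgeR adjusted p of 0.0024. Nat10, the acetyltransferase that U13 assists, was higher at 0.46 ± 0.14, and Fbl was not called (-0.22 ± 0.14). For 4 of the 22 the BRM014 effect was the higher one, as for 15.4% of all expressed genes, and Nop56 was among them (0.91 ± 0.20).

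Even counts were frequent among these genes. Of the counts above 0 in members, 61.3% to 76.6% were even numbers in each library, against 54.6% to 57.5% in genes longer than 1000 bases with at most 100 counts. Why even counts were more frequent was not tested.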

How the data were processed

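The deposited values are raw counts of reads per gene and per ERCC spike-in RNA, made by the authors for mm10. Per the submitters' processing notes, Trim Galore 0.6.4, STAR 2.7.1a, featureCounts and edgeR 3.32.1 were used, and per the labels' protocols the library kit was directional. How strand and reads with several alignments were counted is not given in the sources used here, so closely related snoRNA copies are uncertain, and reads over a nested snoRNA may also come from its host. No sample title matches the Chd4 shRNA column r4 or the scrambled column r3, and both were placed by their group name. The members, lists and tests were chosen with earlier results of these data known.

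One edgeR 4.0.16 model in R 4.3.3 held all 8 libraries, on the 8272 genes at least 10-fold above background, with TMM scaling of those genes. SEs came from the F statistic. Alternatives were DESeq2 1.42.0, other scalings and filters, each library left out, background subtraction and a replicate block. The script was tested on simulated data. Genes named were the processing snoRNAs, up to 5 called falls and rises per comparison above the median level of tested members whose groups did not overlap, members of the hosts with the most members (5 hosts, by ties), up to 4 particle genes, and hosts. Others are named after their values were seen. Promoters and the hairpin are from RefSeq (GRCm38.p6), where 75 of 81 members matched by symbol.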

Additional observations from a re-analysis of the deposited data

How the results depend on the processing

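Counts of members called depended on scale, filter and single libraries, and the cause was not tested unless named. With BRM014, 1 member was higher and 16 lower. The lower count was 0 with TMM over all ERCC RNAs, 5 with plain ERCC totals, 4 with TMM over the 6 abundant ERCC RNAs, 7 with total gene counts, 9 with DESeq2, 6 with a required log2 change of 1 or more in size, and 8 to 21 when single libraries were left out. Over all expressed genes, lower calls went from 383 to 0, 93 and 62 under the same ERCC scalings, so calls dropped for genes in general. In the Chd4 shRNA comparison they went from 1694 to 6, 62 and 59. The higher count was 0 under the 3 ERCC scalings, the 30-fold background filter, at least 50 counts in 2 libraries, subtraction of background with extended length and DESeq2, 6 with scaling to short genes, and 0 to 2 when single libraries were left out. For Chd4 shRNA labels (4 higher, 20 lower), the lower count was 1 under each of the 3 ERCC scalings, 11 with total counts, 12 with the 30-fold filter, 49 with the edgeR default filter, 56 with no filter, 12 with DESeq2, and 9 to 22 with single libraries left out. The higher count was 0 with TMM over all ERCC RNAs, the 3-fold filter, the default filter, no filter or at least 50 counts, 8 with plain ERCC totals, 2 with extended length, background subtracted with it or a required log2 change of 1 or more, 1 with DESeq2, and 0 to 4 with single libraries left out.

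For the difference between effects (7 higher, 9 lower), the higher count was 0 under the 3 ERCC scalings, 14 scaled to short genes, 4 with total counts, 21 with the 3-fold filter, 38 with the default filter, 43 with no filter, 12 with at least 50 counts, 11 with background subtracted over extended length, 4 with DESeq2, and 3 to 10 with single libraries left out. The lower count was 0 with TMM over all ERCC RNAs, 5 with the abundant ERCC RNAs, 5 with the 3-fold filter, 0 with the default filter, 0 with no filter, 4 with at least 50 counts, 5 with DESeq2, and 5 to 13 with single libraries left out. The default filter tested 57 members and no filter 81. In the Chd4 shRNA comparison 86% and 69.1% of these members were lower, against 73.3% and 56.7% of other short genes. Over all genes fitted, 11134 and 11939 were lower there, and 9721 and 10330 were higher for the difference. The default filter and no filter moved the median of the expressed genes in the libraries labelled Chd4 shRNA to -1.34 and -1.49. Under these 2 settings, signs turned for Snord17 (-0.69 and -0.85) and Snord21 (-0.71 and -0.86) in that comparison and, for the difference, for Snord104 (0.47 and 0.63) and Snord118 (0.75 and 0.90). Without a filter the Snord17 difference was 0.15, and with plain ERCC totals Snord49a in the libraries labelled Chd4 shRNA was 0.016.

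Same-numbered BRM014 and DMSO libraries deviated with a correlation of -0.29 over 6225 genes, so numbers were not taken as pairs. The replicate block gave 18 lower and 1 higher members (754 genes called in all, against 641), and the crossed pairing, added later, 18 members and 827 genes. No paired analysis was possible for the Chd4 shRNA comparison because its columns share 1 number only. Detection in every library dropped from 26 members at 10 counts to 8 at 50. The edgeR default filter within the expressed genes, both background subtractions, the crossed pairing and the comparison of controls were chosen after seeing the data.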
